A study of Mus musculus with 17 samples.

Results

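The 7 genes described here mark mural cells, the pericytes and smooth muscle cells that wrap blood vessels, or the contractile machinery of such cells. They are Acta2, Myl9, Rgs5, Higd1b, Kcnj8, Abcc9 and Pdgfrb, chosen by name from the gene symbols of the expression table, and they make up 7 of its 8446 rows. Each symbol had 1 row. The table holds 17 single cells from the back skin of adult C57BL/6 mice that carried a tamoxifen-inducible Cre under Prrx1 control (Prrx1-CreERT) and a Tomato reporter. All mice received tamoxifen at 2 mg per 30 g of mouse, once a day for 3 days. Cells were released with elastase and collagenase, sorted as Tomato-positive and then picked singly, so every cell had passed 1 gate set by Prrx1-driven recombination. No cells without Cre, without tamoxifen or negative for Tomato were analysed here. All 17 cells form 1 group, no animal is named for any of them, and they were treated as 1 sample, so no p-value is given and a mean ± SD describes the spread over cells.

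Values are log2 of FPKM plus 1, where FPKM is a fragment count scaled for gene length and for library size. The base of the logarithm and the added 1 were inferred from the values, because the sources used here do not state them. A gene was called detected at FPKM 1 or more. Its value was called low at FPKM 1 to under 5 (1 to under 2.58 on the log2 scale) and high at FPKM 10 or more (3.46 or more). All cells had been brought to the same distribution: each had 4369 rows detected and a median row of 1.18. A value therefore also gives a rank within its cell, and 51.7% of rows were detected in every cell by construction. Depth per cell is unknown. Between pairs of cells the Spearman correlation over all rows ranged from 0.413 to 0.608, and no pair was identical.

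Pericytes sit in the basement membrane of capillaries and are recruited by platelet-derived growth factor, which acts on the receptor encoded by Pdgfrb. Their tone and that of vascular smooth muscle depend on actin and myosin filaments, on G protein signalling, which Rgs5 dampens, and on an ATP-sensitive potassium channel built from the products of Kcnj8 and Abcc9. Acta2 and Myl9 are also switched on in myofibroblasts and in the dermal sheath around hair follicles, and Pdgfrb is expressed by many fibroblasts, so none of the 7 genes alone names a cell type.

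The 7 markers were sparse in these cells. Of their 119 values, 41 (34.5%) were detected, against 51.7% of all values in the table, and 10 (8.40%) were high, against 35.2%. A further 27 values were low and 4 lay between the bands. The markers were detected in a median of 6 cells each, against 8 cells over all rows. The median of their means was 0.82, against 1.89 over all rows. Only Pdgfrb was detected in at least 9 of the 17 cells, a mark that 46.9% of all rows reached. In at least 1 cell, 5 of the 7 markers were high, whereas 94.5% of all rows were.

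**Figure D1:**
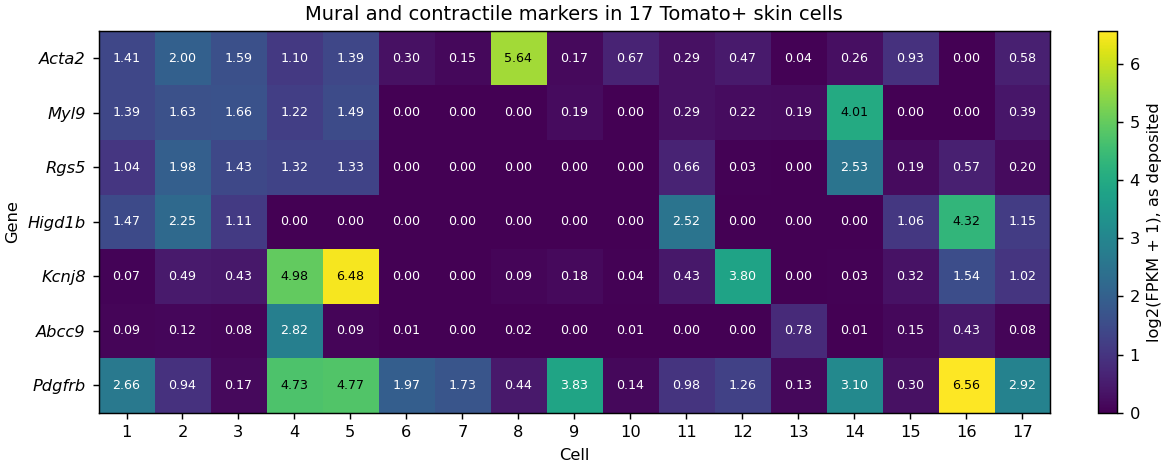
Expression of the 7 markers (down the page) in each of 17 cells (across), as log2(FPKM + 1), with each value printed in its square. Acta2, Myl9 and Rgs5 lay between 1.04 and 2.00 in cells 1 to 5, and the brightest squares are single cells, such as Acta2 at 5.64 in cell 8, Kcnj8 at 6.48 in cell 5 and Pdgfrb at 6.56 in cell 16.

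Acta2 encodes smooth muscle alpha-actin, the actin of contractile filaments (ENSMUSG00000035783, GRCm38 chromosome 19, 34241090 to 34255590, minus strand). In cells 1 to 5 its values were 1.41, 2.00, 1.59, 1.10 and 1.39. Cell 8 held 5.64, which is FPKM 48.8 and the 80.0th percentile of the rows of that cell. The remaining 11 cells, all undetected, had a highest value of 0.93, in cell 15. Acta2 thus showed 5 low cells and 1 high cell, with the high cell outside the low ones. It was detected in 6 of 17 cells (exact Clopper-Pearson 95% interval 14.2% to 61.7%). This interval, like each one below, covers counting error over cells only and not variation between animals, which are not named.

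Myl9 encodes a regulatory light chain of smooth muscle and non-muscle myosin (ENSMUSG00000067818, chromosome 2, 156775420 to 156781658, plus strand). Its values in cells 1 to 5 were 1.39, 1.63, 1.66, 1.22 and 1.49, a spread of 0.18 (SD) around a mean of 1.48. Cell 14 held 4.01, or FPKM 15.1. In the other 11 cells it did not pass 0.39, and 6 of them were at the lowest value. Myl9 had the same shape over cells as Acta2, with 5 low cells and 1 high cell, but the high cell was another one: Myl9 was at 0.00 in cell 8, and Acta2 was at 0.26 in cell 14.

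Rgs5 encodes a regulator of G protein signalling that is among the most used pericyte markers (ENSMUSG00000026678, chromosome 1, 169655501 to 169695813, plus strand). It had 1.04, 1.98, 1.43, 1.32 and 1.33 in cells 1 to 5 and 2.53 in cell 14, which is FPKM 4.76. No cell had a high value, and the other 11 cells reached at most 0.66, in cell 11. Cell 14 was therefore the highest cell for both Myl9 and Rgs5. Over the 17 cells these genes had a Pearson correlation of 0.93, which was 0.93 without cell 14 and 0.95 without cells 1 to 5, but 0.25 over the 11 cells left without either. The correlation of Acta2 with Myl9 was 0.01 and with Rgs5 0.05.

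Acta2, Myl9 and Rgs5 thus shared low values in the same cells. The 250 bases before their starts (RefSeq, GRCm38.p6) are shown because the genes were low together in those cells and because smooth muscle genes are known to be driven through CArG boxes, the sites of serum response factor. Windows of 5 of the 7 markers are described here, without Higd1b and Pdgfrb. Capitals mark matches to the CArG box with at most 1 G or C among its 6 inner bases. The motif reads the same on both strands. RefSeq places the starts of Acta2, Myl9 and Abcc9 inside the GENCODE gene. Most of the Acta2 window and the last part of the Myl9 and Abcc9 windows therefore lie within the gene itself. Each sequence runs 5′ to 3′ on the gene's own strand.
Acta2, minus strand, chr19:34255374-34255623: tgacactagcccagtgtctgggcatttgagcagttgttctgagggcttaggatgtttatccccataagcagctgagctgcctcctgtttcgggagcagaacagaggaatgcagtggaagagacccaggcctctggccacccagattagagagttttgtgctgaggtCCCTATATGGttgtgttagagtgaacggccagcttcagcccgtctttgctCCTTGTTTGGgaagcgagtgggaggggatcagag
Myl9, plus strand, chr2:156775214-156775463: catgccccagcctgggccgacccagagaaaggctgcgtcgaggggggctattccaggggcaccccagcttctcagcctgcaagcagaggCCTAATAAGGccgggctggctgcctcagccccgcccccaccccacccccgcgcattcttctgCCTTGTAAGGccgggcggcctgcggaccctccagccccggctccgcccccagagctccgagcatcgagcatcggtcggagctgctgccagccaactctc
Rgs5, plus strand, chr1:169655251-169655500: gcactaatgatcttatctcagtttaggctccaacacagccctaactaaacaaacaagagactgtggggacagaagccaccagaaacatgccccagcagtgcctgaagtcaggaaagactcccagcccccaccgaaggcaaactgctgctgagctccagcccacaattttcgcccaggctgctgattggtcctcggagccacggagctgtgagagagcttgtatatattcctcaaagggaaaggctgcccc

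Acta2 held 2 such matches, CCCTATATGG and CCTTGTTTGG, at 84 to 75 and 34 to 25 bases before the start. Myl9 also held 2, CCTAATAAGG at 161 to 152 bases and CCTTGTAAGG at 99 to 90 bases before the start. Both Acta2 matches lay inside the GENCODE gene, and both Myl9 matches lay before the GENCODE start. The first Myl9 match had no G or C inside, and the other 3 matches had 1. Rgs5, Kcnj8 and Abcc9 had no match in this window. Of 32851 promoters of the same length, 8.59% held at least 1 match, and 1.47% held one with no inner G or C. These matches describe the letters of the window and no measurement of binding.

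The low values of Acta2, Myl9 and Rgs5 in cells 1 to 5 stood close to the middle of each cell. They lay between the 48.7th and 56.0th percentile of the rows of those cells. Each of the 3 genes was higher in each of cells 1 to 5 than in all but 1 of the other 12 cells, and 48 of 8446 rows (0.568%) were higher there than in all but at most 1 of them. All 5 cells were in the low band for 13 rows (0.154% of all rows). Of these 13, the rows detected in at most 1 of the other 12 cells numbered 3, and they were Acta2, Myl9 and Rgs5. The pattern was looked for because these 3 genes show it, so the counts describe it and do not test it.

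The band depends on how the deposited values are read. With the values taken as natural logarithms 7 rows lay in it, with Myl9 alone among the markers, and after multiplication by gene length 6 did, with Rgs5 alone. The order of the cells does not depend on the log base. Next to these genes stood Sncg, which encodes gamma-synuclein and was on the list of smooth muscle genes, with 1.17 to 1.60 in cells 1 to 5, 4.25 in cell 13 and 1.07 in cell 17. Cd36, which encodes a fatty acid transporter of capillary endothelium and fat, had 1.06 to 2.29 in cells 1 to 5 and was detected in 4 of the other cells, with 3.02 in cell 16. Sncg and Cd36 are named here after their values were seen.

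**Figure D2:**
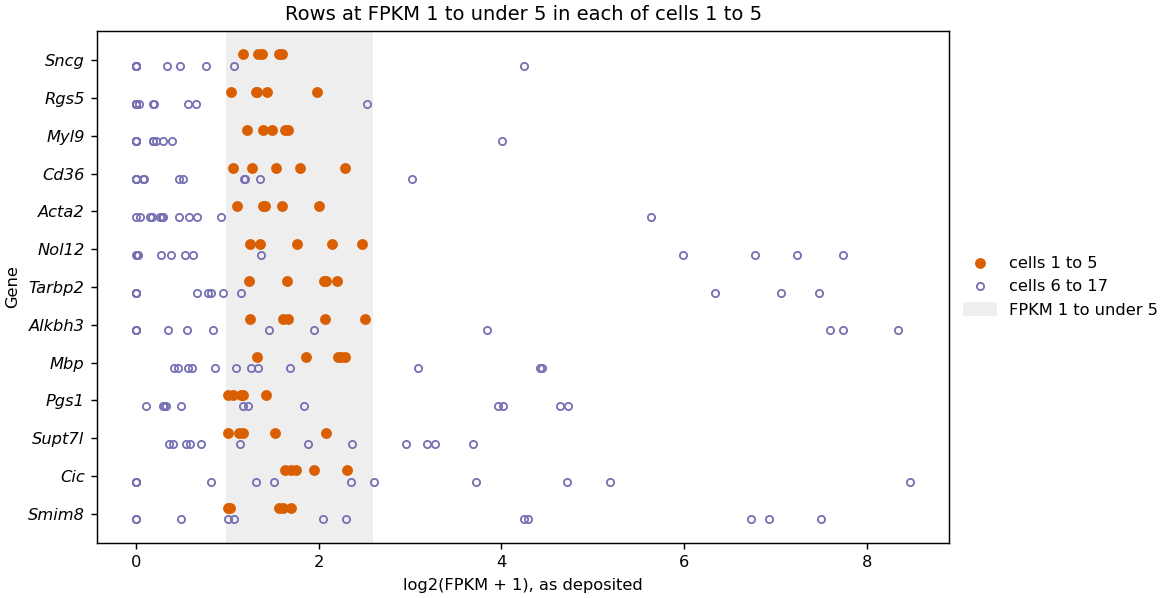
Values of the 13 rows that lay at FPKM 1 to under 5 (grey band) in each of cells 1 to 5, as log2(FPKM + 1), with cells 1 to 5 filled and cells 6 to 17 open, sorted by the median of cells 6 to 17. Rgs5, Myl9 and Acta2 had 11 of the 12 open points below the filled ones, while lower rows such as Smim8 and Cic had many open points above them.

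Cells 1 to 5 were also somewhat more alike in other rows that stayed under FPKM 5, undetected values included. Only means over pairs of cells were taken, without a spread. Over 242 rows that stayed under FPKM 5 in every cell, the 7 markers left out, the mean pair correlation was 0.129 within cells 1 to 5, 0.0661 between these cells and the others, and 0.0598 among the others. The part of what these libraries share in the low marker values was not tested. The labels give no batch, plate or animal for any cell.

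Higd1b encodes a HIG1-domain protein of mitochondria and is widely used as a pericyte marker (ENSMUSG00000020928, chromosome 11, 102835849 to 102838040, plus strand). It was at the lowest value in 10 cells. In cells 1, 2 and 3 it had 1.47, 2.25 and 1.11, while cells 4 and 5 were at 0.00, so the low values did not follow those of Acta2, Myl9 and Rgs5 through all 5 cells. It also had 2.52 in cell 11, 1.06 in cell 15 and 1.15 in cell 17. Cell 16 was the only high cell, with 4.32 or FPKM 19.0. The low cells were thus spread over the numbering, and the detected count was 7 of 17 cells.

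Kcnj8 and Abcc9 encode the pore (Kir6.1) and the sulfonylurea receptor (SUR2) of 1 potassium channel. They are neighbours on chromosome 6: Kcnj8 (ENSMUSG00000030247) runs from 142564837 to 142571614 and Abcc9 (ENSMUSG00000030249) from 142587862 to 142702315, both on the minus strand, with 16247 bases and no annotated gene between them. Kcnj8 was high in 3 cells, with 4.98 in cell 4, 6.48 in cell 5 and 3.80 in cell 12. It was low in cells 16 and 17 (1.54 and 1.02), and the other 12 cells reached at most 0.49. Kcnj8 had no block of low values in cells 1 to 5: cells 1, 2 and 3 were at 0.07, 0.49 and 0.43.

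Abcc9 was the least detected of the 7 markers. Cell 4 had 2.82, or FPKM 6.06, and the next value was 0.78 in cell 13. Cell 4 was therefore the only cell with both channel subunits. Cell 5, the highest cell for Kcnj8, had Abcc9 at 0.09, and cell 12 had it at 0.00. The genes of the other subunits, Kcnj11 and Abcc8, had no row under these symbols among the 8446 rows. Exons of Abcc9 overlap an annotated antisense gene, and reads of the pair cannot be told apart without strand. Abcc9 also has the most exonic bases of the 7 markers, 8373 in total, and Higd1b has the fewest, 847. The libraries were made from 3′ ends, while FPKM is scaled for length. After multiplication by exonic length the mean of Abcc9 was 0.46 instead of 0.28, and that of Higd1b was 0.36 instead of 0.82. The part of length in the detection of either gene was not tested.

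Pdgfrb, the receptor gene (ENSMUSG00000024620, chromosome 18, 61045150 to 61085061, plus strand), was the most detected marker, in 10 of 17 cells (exact 95% interval 32.9% to 81.6%). It was high in 4 cells, with 4.73 in cell 4, 4.77 in cell 5, 3.83 in cell 9 and 6.56 in cell 16. It lay between the bands in cells 1, 14 and 17 (2.66, 3.10 and 2.92) and was low in cells 6, 7 and 12 (1.97, 1.73 and 1.26). The 7 undetected cells lay between 0.13 (cell 13) and 0.98 (cell 11), and none was at the lowest value. Pdgfrb was the only one of the 7 markers with cells in all bands.

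**Figure D3:**
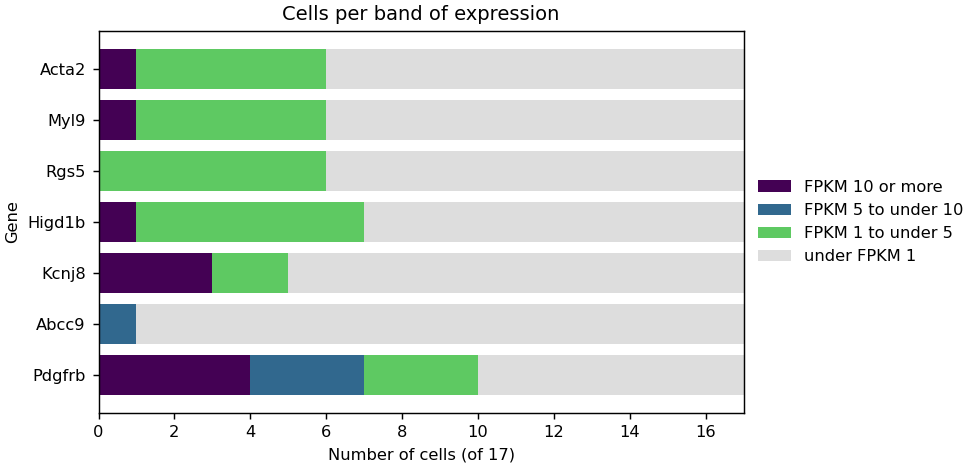
Number of cells (of 17) in which each marker was at FPKM 10 or more, at 5 to under 10, at 1 to under 5 and under 1. Rgs5 and Abcc9 had no cell at FPKM 10 or more, Pdgfrb had 4 and Kcnj8 had 3.

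Ordered by mean level per length, the markers were Pdgfrb (2.15 ± 1.93, SD over 17 cells), Kcnj8 (1.17 ± 1.97), Acta2 (1.0 ± 1.34), Higd1b (0.82 ± 1.24), Myl9 (0.75 ± 1.06), Rgs5 (0.66 ± 0.80) and Abcc9 (0.28 ± 0.69). No gap between neighbours in this order exceeded the SD of either gene. The widest was 0.98, between Pdgfrb and Kcnj8. In 6 of the 7 markers, all but Pdgfrb, the SD was larger than the mean. After multiplication by exonic length the order below Kcnj8 changed. It then ran Rgs5 (0.81), Acta2 (0.80), Abcc9 (0.46), Myl9 (0.40) and Higd1b (0.36).

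At least 1 high marker was found in 7 cells (exact 95% interval 18.4% to 67.1% of cells), namely 4, 5, 8, 9, 12, 14 and 16. Of these, 3 held a pair of high markers: cells 4 and 5 each had Kcnj8 with Pdgfrb, and cell 16 had Higd1b with Pdgfrb. No other pair of markers was high together. At least 3 markers were detected in 8 cells (exact 95% interval 23.0% to 72.2%), which were cells 1 to 5, 14, 16 and 17. Cell 4 had the most, 6 of 7, lacking Higd1b. At FPKM 5 or more cell 4 was the only cell with 3 markers, and at FPKM 10 no cell had 3. Cells 10 and 13 had none. For comparison, 51.7% of all values over all rows were detected and 35.2% were high. The same counts were not made for other sets of 7 rows.

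All cells with marker values also carried fibroblast transcripts. Of 12 measured fibroblast markers, such as collagen genes and Pdgfra, each cell had 9 to 12. Among the 7 cells with a high marker, cells 5 and 8 had 12, cells 4, 9, 14 and 16 had 11 and cell 12 had 10. Pdgfra, the other platelet-derived growth factor receptor and a fibroblast marker, averaged 5.39 ± 1.39 and was detected in all 17 cells. Its lowest value, 1.71, was in cell 8, the cell with the highest Acta2, where Col1a2 was at 11.58. Genes of other cell types were also present in some of these cells. Of 3 measured endothelial genes, Tek, Plvap and Esam, cells 8 and 12 each had 2 detected, Tek at 3.72 and 3.10 and Plvap at 3.19 and 3.07, with Esam at 0.00 in both. Cell 5 had Tek at 6.24, with Plvap at 0.21 and Esam at 0.00, and cell 16 had Esam at 3.92, its highest value, with Tek at 0.48 and Plvap at 0.86. Cells 4, 9 and 14 had none of the 3 detected. The mean of this list ranged from 0.14 in cell 14 to 2.52 in cell 17.

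Cell 16 had the highest mean of the adipocyte list (7.36, against a lowest of 0.26 in cell 9), with all 3 measured genes high, and of the Schwann list (3.85, against a lowest of 0.28 in cell 8), with Mbp at 4.42 and S100b at 3.28. It also had Mitf, the 1 measured melanocyte gene, at 5.92, and the lowest median Spearman correlation with the other cells, 0.448. Mitf was highest in cell 5, at 6.78. The mean of the 2 measured keratinocyte genes was highest in cell 1 (2.81), as was Csf1r, the 1 measured immune gene (4.69). Of 4 measured dermal sheath genes, Acta2 and Myl9 among them, Abi3bp was detected in all 17 cells and Mef2c in 9, and the list mean ranged from 0.98 in cell 9 to 3.80 in cell 4. The part of these other genes in the marker values was not tested.

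Acta2, Myl9, Higd1b and Pdgfrb were each below a measured family member in at least 16 cells. Pdgfrb exceeded Pdgfra only in cell 16 (6.56 against 5.83), and was lower by 3.24 ± 1.71 on average over 17 cells. Higd1b exceeded Higd1a, a HIG1-domain gene expressed in many tissues, also only in cell 16 (4.32 against 2.14). Acta2 was below Actb and Actg1, the cytoplasmic actins, in every cell, and Myl9 was below Myl12a and Myl12b, the non-muscle light chains, in every cell. Actb averaged 10.80 ± 1.05, with its highest value, 12.56, in cell 8, where Acta2 was also highest. Myl12a averaged 9.24 ± 0.76. Coding sequences within the actin and within the light chain family are closely alike, while the library kit reads transcript ends. How reads that match several genes were assigned is unknown. Whether such reads add to the Acta2 or Myl9 values was not tested.

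**Figure D4:**
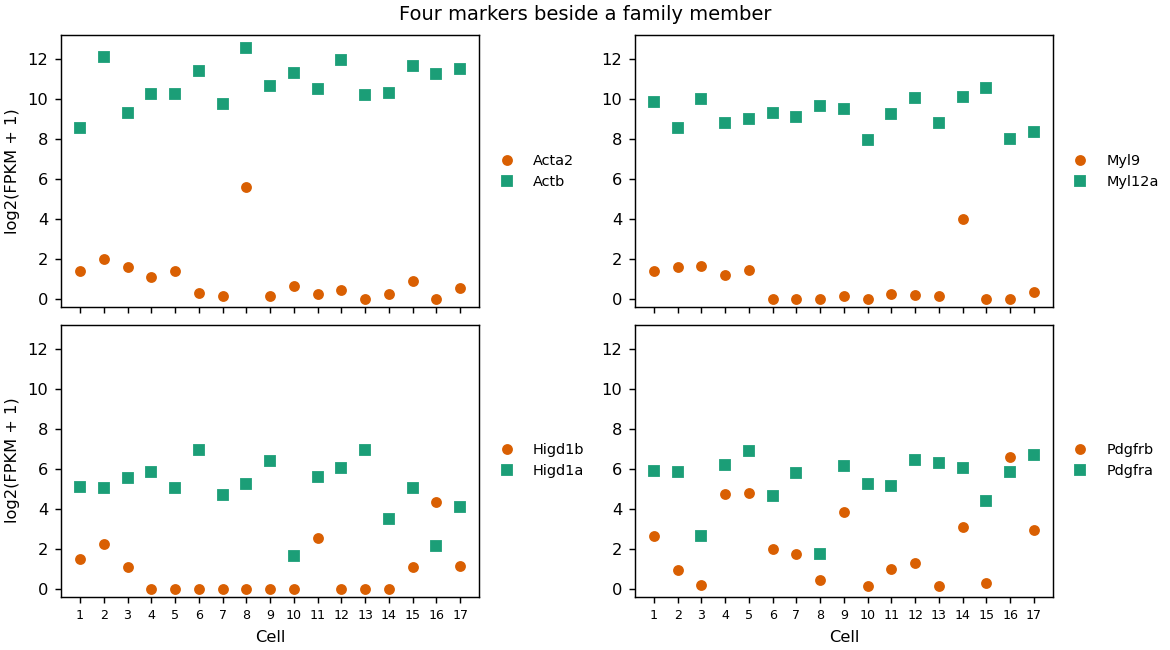
Expression of Acta2, Myl9, Higd1b and Pdgfrb (circles) and of 1 family member each, Actb, Myl12a, Higd1a and Pdgfra (squares), in cells 1 to 17, as log2(FPKM + 1). The circles lie below the squares in all cells for the upper panels, and in all but cell 16 for the lower ones.

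Of 57 other measured genes of the related lists (pericytes, smooth muscle, general actomyosin, and the channel, PDGF, RGS, HIG1 and Notch families), 31 were detected in at least 9 of the 17 cells, against 46.9% of all rows. The lists differed widely. Of 24 genes of the general actomyosin list, which serve contraction and shape in any cell, 17 were, and 12 were in all 17 cells. Of the 6 other smooth muscle genes 3 were, namely Cald1 (caldesmon, an actin-binding protein, 8.23 ± 1.26), Mustn1 (a small nuclear protein of muscle and skeleton, 5.53 ± 2.62) and Smtn (smoothelin, 2.38 ± 2.30). Among 14 other pericyte genes 5 were. Medians of the gene means were 0.77 for the 19 measured pericyte genes, 0.99 for the 8 smooth muscle genes and 4.80 for the general actomyosin list, against 1.89 over all rows. Tagln, Myh11, Cnn1, Des, Notch3, Cspg4 and Mcam, further defining genes of mural cells, had no row under these symbols among the 8446 rows.

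The pericyte genes with the highest means were Cd248, Art3, Steap4 and Anpep. Cd248 (endosialin, a surface protein of pericytes and stromal fibroblasts) averaged 7.06 ± 1.52 and was detected in all cells. Art3 (an ADP-ribosyltransferase, 3.72 ± 2.37) and Steap4 (a metalloreductase, 3.56 ± 2.53) were detected in 15 cells each, and Anpep (aminopeptidase N, 2.70 ± 1.99) in 13. Vtn (vitronectin, which brain pericytes secrete) was high in cells 1, 3, 14 and 17, among them cell 14 with high Myl9. Heyl, a Notch target of mural cells, was under FPKM 1 in every cell, with at most 0.24.

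The next genes were picked from the lists because they were high in at most 6 cells, with a high marker in at least 1 of them. Their overlap with high markers was therefore set by the choice. Other list genes in the same cells went the other way. Csrp1 and Sncg were at 0.00 in cell 8, Smtn in cell 4, Tbx18 in cell 9 and Anpep in cell 16. Sncg was high only in cell 13, which held no high marker. Tpm2, a tropomyosin of muscle, was high only in cell 8 (4.03), beside Acta2. Csrp1, a LIM-domain protein of smooth muscle, was high only in cell 4 (5.07), as was the actin crosslinker gene Actn1 (3.94). Tbx18, a transcription factor of mural cell progenitors, was high only in cell 16 (6.57), and Foxs1, a forkhead factor of pericytes, only in cell 9 (7.14), the cell where Pdgfrb was the 1 high marker. Cnn2, a calponin, was high in cells 7, 8, 10, 14 and 15. Smtn was high in cells 2, 3, 5, 8, 10 and 13, Ppp1r12a (myosin phosphatase targeting subunit) in cells 2, 7, 13 and 16, Myh10 in cells 12, 13, 15 and 16, and Myh9 in cells 15 and 16. High values in 1 to 4 cells were common, at 46% of all rows.

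**Figure D5:**
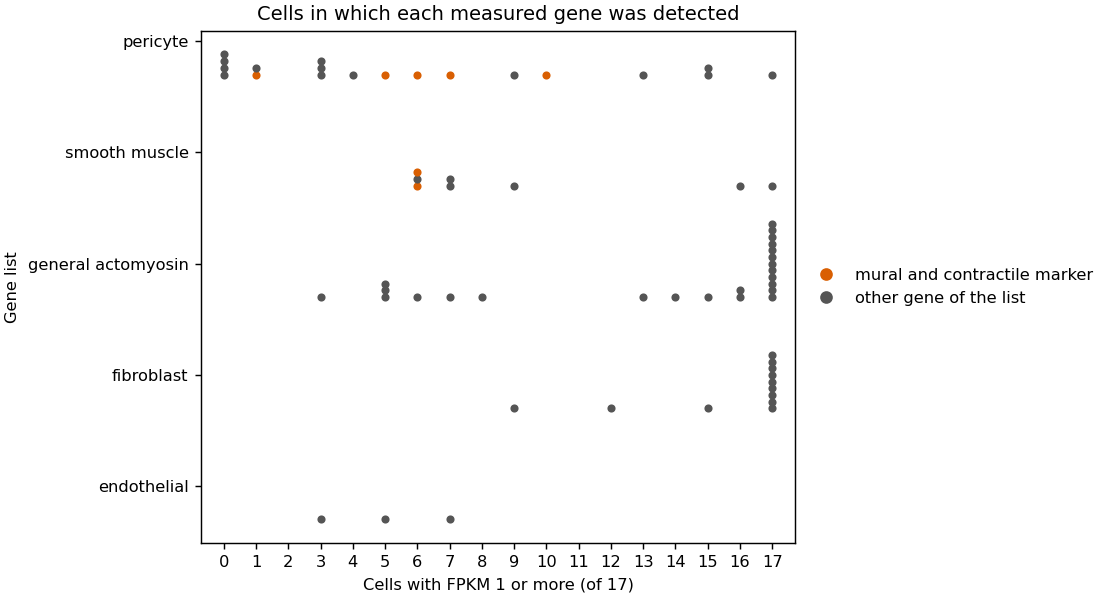
Number of cells (of 17) in which each measured gene was at FPKM 1 or more, 1 point a gene, for the pericyte, smooth muscle, general actomyosin, fibroblast and endothelial lists, with the 7 markers in orange and points at the same count stacked. The markers lie between 1 and 10 cells, while 12 general actomyosin genes and 9 fibroblast genes lie at 17.

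The families of the signalling markers varied as widely. Among the other measured regulators of G protein signalling, Rgs3 was detected in 12 cells and was highest in cell 4 (8.07), Rgs19 in 8, Rgs2 in 6, Rgs12 in 5 and Rgs10 in 4. Each of these 5 had high values in at least 2 cells, whereas Rgs5 had none. Rgs5 exceeded Rgs2 in 7 cells, among them cells 1, 3, 4, 5 and 14. Of the ligands, Pdgfc was high in cells 2, 6 and 10 and Pdgfd in cell 2 (6.52). None of these was a cell with high Pdgfrb, but so few high cells can miss each other without any link. How often other pairs of rows did so was not counted, and no link was tested. Pdgfrl, a receptor-like gene, was detected in 15 cells (5.19 ± 2.31). Of the Notch genes, Hes1 (a target, 5.98 ± 2.52) was detected in 15 cells and the ligand gene Jag1 in 7. Higd2a, a HIG1-domain gene of the respiratory chain, was detected in all cells (6.59 ± 1.64).

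Genes most like each marker were taken by Pearson correlation over the 17 cells among 7551 rows detected in at least 3 cells, as a description. For Acta2 they were Bvht (a long noncoding RNA, 0.97), Mzt2 (0.92) and Med24 (0.89), each highest in cell 8. For Myl9 they were Rgs5 (0.93), Sugp2 (0.83) and Hilpda (0.80), and for Rgs5 Myl9 (0.93), Arl2 (0.89) and Hilpda (0.82). Kcnj8 had Mtus1 (0.92), Cdc34b (0.87) and Mturn (0.86), which were highest in cell 4 or 5. Higd1b had Cmbl (0.88), Ldhb (0.86) and Rdm1 (0.86), and Pdgfrb had Dennd1a (0.82), Sh3pxd2a (0.82) and Rapgef2 (0.80), all highest in cell 16. The choice depended on the measure and on the cells: 3 of the 18 genes were also named by Spearman correlation, and 2 without cells 1 to 5. Abcc9, detected in 1 cell, was left out.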

How the data were processed

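The deposited table gives 1 column of log2 values per cell for 8446 rows. TopHat2, Cufflinks and the build GRCm38 are named in the submitters' processing notes; their versions and settings, the logarithm and any equalising of distributions are not given in those sources. Per the labels' protocols, the library kits were SMART-Seq v4 3′ DE, which reads transcript ends, and Nextera XT. The base was read as 2 because the back-transformed FPKM then summed to 592939 to 592955 per cell, against 12675742 or more with base e. Positions and exon lengths came from GENCODE M21 (GRCm38), which matched 99.8% of rows by Ensembl identifier. Where other symbols had several rows, the one with the highest mean stood for the gene.

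No test was run, since all cells form 1 group with no animal named. The markers, lists and bands were chosen with earlier results of these data known. Named genes are the 7 markers, their measured family members, every gene of a related list (mural, contractile and family genes) with up to 6 measured genes, otherwise the 4 highest means and genes high beside a high marker in at most 6 cells, and the 3 genes most like each marker. Other cell type genes are named for comparison. The likeness ranking was tested on simulated data with planted copies. Alternatives covered detection and band thresholds, log base, pseudocount, rescaling, length, the correlation measure and cells left out. Computations ran in Python 3.11.15 with pandas 2.3.3, numpy 2.4.6 and scipy 1.17.1. Plots were drawn with matplotlib 3.10.9.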

Additional observations from a re-analysis of the deposited data

How the results depend on the processing

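The 1 marker detected in at least 9 of the 17 cells became 6 when any value above the lowest of the cell counted, and 0 at FPKM 5 or at FPKM 10. Cells with 3 or more markers, 8 of 17, became 16, 1 and 0 under the same thresholds. Of the 57 related genes, 31 were detected in at least 9 of the 17 cells, and 54 with any value above the lowest. Markers high in at least 1 cell were 5, and 3 at FPKM 20. The 13 rows low in each of cells 1 to 5 became 7 with natural logarithms, 6 after multiplication by gene length and 21 with a band up to FPKM 10. The mean over the 7 markers, 0.98, was -0.87 with a pseudocount of 0.1. These settings change the threshold or the scale itself, and no further cause was tested. The other 29 of 41 settings for these summaries left the value within 1.5 times or within its interval or SD. The intervals are wide, so some counts among these settings still moved. Cells with a high marker went from 7 to 4 at FPKM 20. Cells with 3 or more markers went from 8 to 3 without cells 1 to 5. Rescaling each cell changed nothing, since the cells have nearly equal sums. Leaving out the cells that decide the correlation of Myl9 and Rgs5 was chosen after the data were seen. No paired analysis was possible because there is 1 group. With depth unknown, a value of 0 gives no detection limit, and 17 cells of unnamed animals do not show how animals vary.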
